A study of Mus musculus with 24 samples.

Results

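The basal and luminal keratins of the mouse mammary epithelium are described here across 12 sorted cell groups of pubertal mice. The members are 10 genes of 27179 in the count table, found by their Entrez identifiers mapped to symbols: Krt5, Krt14, Krt15, Krt17, Krt6a, Krt7, Krt8, Krt18, Krt19 and Krt23. All 10 passed the filter on low counts that left 18109 genes for testing, and 9 of the 10 had over 3 counts in every one of the 24 libraries. The exception was Krt23, with 2 counts in 1 luminal library.

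RNA was measured by bulk RNA-seq, with 2 libraries in each group, after microdissection of terminal end buds (TEBs), the club-shaped tips from which pubertal ducts elongate, and of the ducts behind them. Lineage-negative EpCAM+ cells with high CD29 formed the basal gate and those with low CD29 the luminal gate. Mice of one model carried an Elf5-rtTA-IRES-GFP allele, in which GFP reports Elf5 transcription, and their cells gave basal, luminal GFP+ and luminal GFP- libraries from TEBs and ducts. Mice of the other model were PR-cre/Rosa26-LSL-eYFP, in which Cre driven at the progesterone receptor gene permanently turns on YFP, and their cells gave basal, luminal YFP- and luminal YFP+ libraries from TEBs and ducts. YFP therefore marks cells that expressed Cre or descend from such cells. No treatment is named in the labels, and no age beyond puberty is given. Whether both libraries of a group came from different animals is not stated, so the p-values measure the spread between these libraries, which may be technical. Gates of one model, tissue and replicate number may also come from 1 preparation.

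Keratins are the intermediate filament proteins of epithelia, and each filament is built from pairs of a type I (acidic) and a type II (basic to neutral) chain. Krt5 and Krt8 are type II partners of the type I chains Krt14 and Krt18. In the mammary gland Krt5, Krt14 and Krt17 are used as markers of the basal layer, which holds the contractile myoepithelial cells, and Krt8, Krt18 and Krt19 as markers of the luminal layer that lines the duct. The tip of a TEB has an outer layer of cap cells over the body cells that form the luminal layers. By the RefSeq annotation of GRCm38.p6, the type I genes Krt14, Krt15, Krt17, Krt19 and Krt23 lie on chromosome 11, and the type II genes Krt5, Krt6a, Krt7 and Krt8 lie on chromosome 15. Krt18 (chr15:102028216-102032026) is the type I gene that lies beside Krt8 (chr15:101996711-102004342) on chromosome 15.

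Library depth was 31.3 to 52.5 in 1e6 counts, which makes 3 counts equal to 0.0579 to 0.097 CPM (TMM-scaled counts per 1e6). Markers other than keratins went with the gate labels. The summed level of 10 basal markers was between 5780 and 13070 CPM in basal TEB libraries and between 27260 and 29780 CPM in basal duct libraries, against 19.4 to 318.9 CPM in the 16 luminal libraries. Elf5, which marks the alveolar progenitor side of the luminal layer, was at 410 to 1657 CPM in GFP+ and YFP- libraries and at 15.03 to 87.3 CPM in GFP- and YFP+ libraries. Pgr, the progesterone receptor gene of the hormone-sensing luminal cells, was at 13.2 to 73.3 CPM in GFP+ and YFP- libraries and at 202 to 635 CPM in GFP- and YFP+ libraries. The GFP+ and YFP- gates are therefore compared below as a pair with the pair of GFP- and YFP+ gates.

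A pair of luminal libraries stood apart before any comparison of keratins. Luminal GFP- duct replicate 2 had a summed level of 2566 CPM over 14 keratinocyte genes that include no member, with Krt10 at 991 CPM and Krt1 at 669 CPM, against 15.2 CPM in replicate 1 of its group. Luminal YFP- TEB replicate 2 had 536.3 CPM and replicate 1 of that group 104.6 CPM. The other GFP+ and YFP- libraries had 50.2 to 81.2 CPM, mostly from Sbsn and Dmkn, the other GFP- and YFP+ libraries 9.62 to 24.7 CPM, and the basal libraries 9.32 to 23.9 CPM. Krt2 and Flg, 2 genes of late skin differentiation, had no counts in any luminal library.

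Krt5, Krt14, Krt15 and Krt17 were raised in the same pair of libraries. Krt5 was at 4.93 and 1962 CPM in GFP- duct replicates 1 and 2, and at 60.3 and 453 CPM in YFP- TEB replicates 1 and 2. Krt14 was at 3.02 and 1115 CPM in GFP- ducts and at 31.0 and 267 CPM in YFP- TEBs. Krt15, a type I keratin also known from the hair follicle bulge, reached 1787 CPM in GFP- duct replicate 2, which was above all 8 basal libraries (111 to 897 CPM). Trp63, the p63 gene of basal epithelial cells, was at 202 CPM in GFP- duct replicate 2 and at most 1.37 CPM in the other GFP- and YFP+ duct libraries. Acta2, the smooth muscle actin of myoepithelial cells, was at 10.6 CPM in GFP- duct replicate 2 and at 10.6 to 13.6 CPM in the other 3 GFP- and YFP+ duct libraries. Results on the luminal gates are therefore given with all 24 libraries and with the 22 that remain without this pair.

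**Figure D1:**
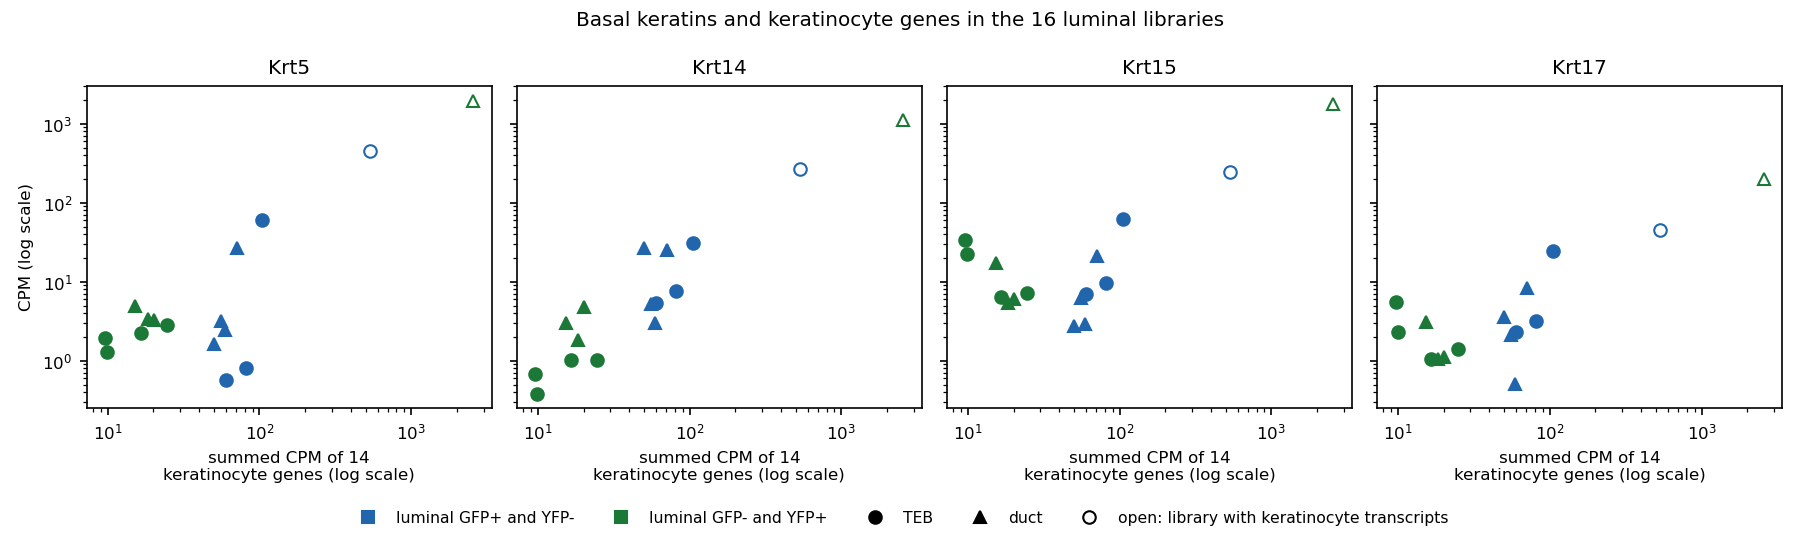
Levels of Krt5, Krt14, Krt15 and Krt17 (CPM, log axis) against the summed level of 14 keratinocyte genes (CPM, log axis) in the 16 luminal libraries; each point is a library. GFP- duct replicate 2, at a sum of 2566 CPM, and YFP- TEB replicate 2, at 536.3 CPM, lie to the right and hold the 2 highest levels of each keratin.

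Basal and luminal cells differed in every member. In ducts, 63.3% of all tested genes passed the test between basal and luminal cells (edgeR's quasi-likelihood test, Benjamini-Hochberg adjusted p under 0.05), and all 10 keratins did: 5 were higher in basal cells (33.5% of all genes were) and 5 lower (29.8%). In TEBs, 58.8% of all tested genes passed and again all 10 keratins did, with the same 5 higher (30.8% of all genes) and the same 5 lower (28% of all genes). With 22 libraries all 10 passed too, where 62.8% of all genes passed in ducts (34.3% higher, 28.4% lower) and 58.2% in TEBs (31.3% higher, 26.9% lower). In bulk libraries fewer cells of a type and less RNA per cell cannot be told apart, which touches every low level given here, such as those of luminal keratins in the basal gate.

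Among the keratins of the basal layer, Krt14 was at 2987, 3440, 3050 and 3619 CPM in basal ducts and at 1.83 to 26.7 CPM in the luminal ducts other than GFP- replicate 2. The groups did not overlap, also with that library, and the log2 difference of basal minus luminal ducts was 7.27 ± 0.93 (SE, adjusted p = 1.08e-05) with 24 libraries and 9.16 ± 0.32 (adjusted p = 2.65e-11) with 22. Krt17, a type I keratin of myoepithelial cells and hair follicles, had the largest difference of the 10 in ducts: 1888 ± 326 CPM in basal libraries (SD, n = 4) and 27.5 ± 69.8 CPM in luminal libraries (SD, n = 8), a log2 difference of 8.41 ± 0.75 (adjusted p = 2.67e-07). Without GFP- duct replicate 2 the luminal duct mean of Krt17 was 2.83 ± 2.66 CPM (SD, n = 7), and the log2 difference 9.67. With 24 libraries Krt15 had the smallest difference of the 5 higher keratins, at 4.84 ± 0.79 in ducts and 3.10 ± 0.75 in TEBs (adjusted p = 0.000103 and 0.00269). With 22 libraries it was at 6.27 ± 0.53 in ducts, where Krt23 was the smallest at 6.07 ± 0.33. In TEBs Krt15 remained the smallest, at 3.44 ± 0.44. The groups of Krt15 overlapped in both tissues until the pair of libraries was left out.

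Krt23, a type I keratin known from glandular epithelia, was a basal keratin in these libraries. It was at 275, 208, 241 and 211 CPM in basal TEBs and at 170, 99.3, 130 and 120 CPM in basal ducts, against 0.410 to 81.1 CPM in luminal TEBs and 0.056 to 45.9 CPM in luminal ducts. The log2 difference of basal minus luminal cells was 5.20 ± 0.37 in TEBs (adjusted p = 1.93e-08) and 5.03 ± 0.36 in ducts (adjusted p = 2.44e-08). No luminal library reached the lowest basal library of its tissue.

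Krt8, Krt18 and Krt19, keratins of simple epithelia, were lower in basal cells in both tissues. Krt8 was at 178, 238, 153 and 185 CPM in basal TEBs and at 1584 to 5241 CPM in luminal TEBs, and at 414, 478, 347 and 397 CPM in basal ducts and at 1879 to 3649 CPM in luminal ducts. No basal library reached the lowest luminal library of its tissue. The mean of the basal libraries as a share of the luminal mean (22 libraries) was 4.83% for Krt8, 0.631% for Krt18, 0.441% for Krt19 and 0.438% for Krt7 in TEBs. In ducts it was 13.8% for Krt8, 5.50% for Krt18, 2.60% for Krt19 and 2.02% for Krt7. The share was the highest for Krt8 in both tissues.

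Krt6a and Krt7 are type II keratins, Krt6a known from hair follicles and stressed skin, Krt7 from simple and glandular epithelia. Krt6a was at 3.29 to 5.61 CPM in basal TEBs and at 21.6 to 534 CPM in luminal TEBs (log2 difference -4.65 ± 0.24, adjusted p = 2.36e-10). In ducts its basal level of 8.69 to 10.5 CPM lay inside the luminal range of 3.72 to 312 CPM, above all 4 GFP+ and YFP- libraries and below all 4 GFP- and YFP+ libraries. Krt7 was at 2.22 to 5.39 CPM in basal TEBs and at 199 to 1434 CPM in luminal TEBs, and its groups overlapped in neither tissue. The counting tool's treatment of reads with several matches is not given, so reads of Krt6a may be shared with its near copy Krt6b, reads of Krt14 with Krt16 and Krt17, and reads of Krt8 and Krt18 with their processed pseudogenes.

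**Figure D2:**
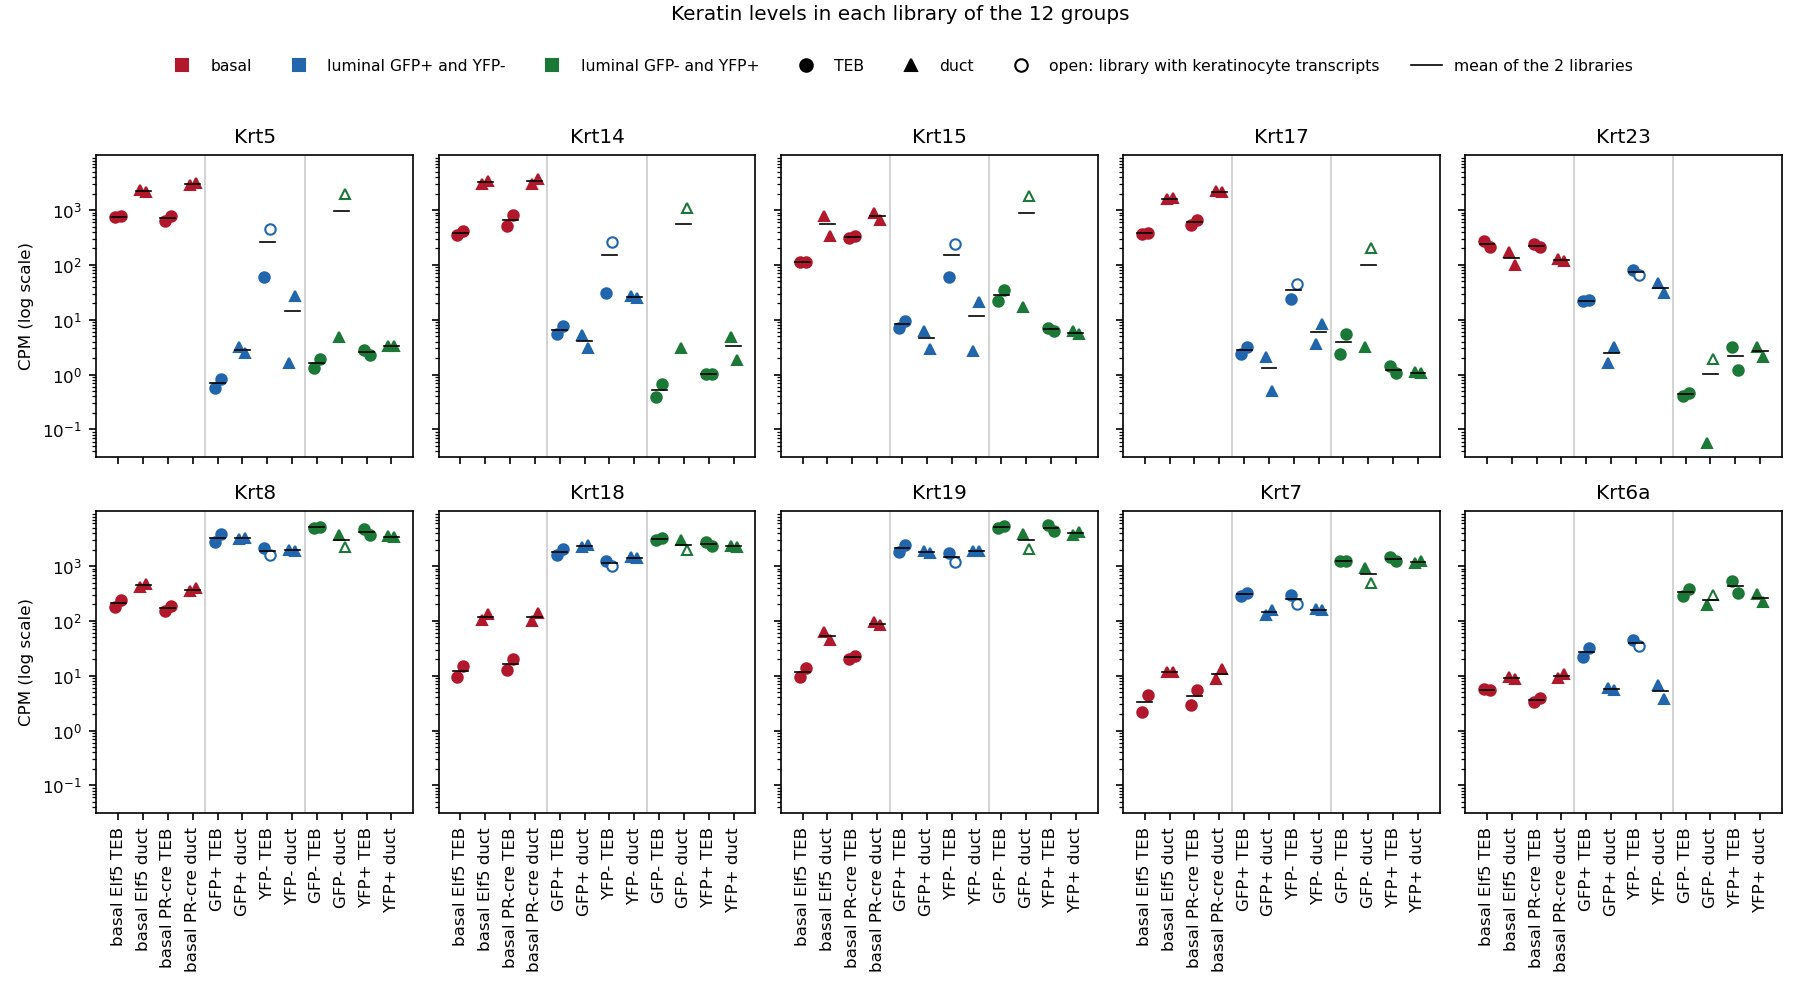
Level of each of the 10 keratins (CPM, log axis) in every library of the 12 groups, TEB left of duct within each gate; points are libraries, bars are group means, and open points are luminal GFP- duct replicate 2 and luminal YFP- TEB replicate 2. Krt5, Krt14, Krt15, Krt17 and Krt23 are high in the 4 basal groups, Krt8, Krt18 and Krt19 in the 8 luminal groups, and Krt6a and Krt7 in the GFP- and YFP+ groups.

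In basal cells, TEBs had less RNA of 9 of the 10 keratins than ducts and more of Krt23, and no member's TEB and duct libraries overlapped. Neither the share of all tested genes without such overlap nor the share lower in TEBs regardless of the test was counted. With 24 libraries, 7 keratins passed the test as lower in TEBs (22.8% of all tested genes did) and 0 as higher (20.9%), where 43.6% of all tested genes passed in either direction. At an unadjusted p under 0.05, 1 was higher, and by DESeq2 none was called higher. With 22 libraries, 9 were lower (24.6% of all genes) and 1 higher (21.4%), where 46% passed in either direction. The median log2 difference over the 10 was -1.81 and over all tested genes -0.04.

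Krt14 was at 345, 420, 513 and 804 CPM in basal TEBs and at 2987, 3440, 3050 and 3619 CPM in basal ducts. The log2 difference was -2.71 ± 1.02 with 24 libraries (adjusted p = 0.0456) and -2.71 ± 0.25 with 22 (adjusted p = 1.75e-06), and it was -3.08 within the Elf5 model and -2.34 within the PR-cre model. Krt5 was at 745, 766, 633 and 786 CPM in basal TEBs and at 2310, 2170, 2835 and 3179 CPM in basal ducts, with a log2 difference of -1.83 ± 1.07 (adjusted p = 0.193) and, with 22 libraries, -1.83 ± 0.51 (adjusted p = 0.012). The fold change was the same in both fits and the SE was not: the spread is estimated over all 12 groups, and the pair of luminal libraries enters it. Krt17 was at 364, 387, 534 and 660 CPM in basal TEBs and at 1569, 1647, 2199 and 2136 CPM in basal ducts (log2 difference -1.98 ± 0.75, adjusted p = 0.0476). With 1 of the 24 libraries left out at a time, Krt14 kept its call in 4 of 24 fits (adjusted p up to 0.152) and Krt17 in 2 of 24 (up to 0.146). All of those that kept it left out a library of the GFP- duct group or, for Krt14, of the YFP- TEB group.

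Krt15 was at 111, 111, 316 and 334 CPM in basal TEBs and at 778, 336, 897 and 673 CPM in basal ducts. Its highest TEB library lay just below its lowest duct library, and the log2 difference was -1.80 ± 0.91 (adjusted p = 0.129), or -1.80 ± 0.47 (adjusted p = 0.00788) with 22 libraries. Within the models it was -2.33 (Elf5) and -1.28 (PR-cre) with 22 libraries. With 24 libraries it was -2.325 (Elf5, adjusted p = 0.189) and -1.27 (PR-cre, adjusted p = 0.521), and neither passed the test. Krt23 went the other way: the log2 difference of TEBs minus ducts was 0.85 ± 0.39 (adjusted p = 0.0983) with 24 libraries and 0.84 ± 0.25 (adjusted p = 0.016) with 22, and it was 0.83 and 0.84 within the Elf5 and PR-cre models. Krt23 was thus called with 22 libraries and not with 24.

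The luminal keratins that basal cells hold at low level were lower still in basal TEBs, and all 24 fits that leave out 1 library kept these calls for Krt6a, Krt7, Krt8, Krt18 and Krt19. Within the models Krt6a passed the same test in PR-cre (-1.46, adjusted p = 0.00482) and not in Elf5 (-0.71, adjusted p = 0.102). Krt18 was at 9.46, 15.2, 12.8 and 20.4 CPM in basal TEBs and at 105, 131, 98.6 and 137 CPM in basal ducts (log2 difference -3.04 ± 0.19, adjusted p = 1.01e-08), the largest difference of the 10. Krt19, a type I keratin of simple epithelia, was at 9.63, 13.8, 20.04 and 23.0 CPM in basal TEBs and at 61.9, 44.9, 94.6 and 82.6 CPM in basal ducts (-2.12 ± 0.19, adjusted p = 3.87e-07). Krt8 differed less, by -1.12 ± 0.15 (adjusted p = 2.04e-05). The summed level of 12 luminal markers that are not keratins was between 504 and 804 CPM in basal TEBs and between 494 and 747 CPM in basal ducts, ranges that overlapped. The hair follicle and immune sums did not overlap. The hair follicle and sebaceous list was at 30.1 to 47.0 CPM in basal TEBs and at 101.3 to 261.2 CPM in basal ducts, where Lgr5 held 64.3 to 229.8 CPM. The immune list was at 5.14 to 9.16 CPM in basal TEBs and at 24.8 to 53.3 CPM in basal ducts. Of the basal markers, Acta2 was at 3214 to 6168 CPM in basal TEBs and at 8719 to 10228.5 CPM in basal ducts, and Trp63 at 344 to 555 CPM in basal TEBs and at 574 to 619 CPM in basal ducts. The part of these markers in the keratin differences was not tested.

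**Figure D3:**
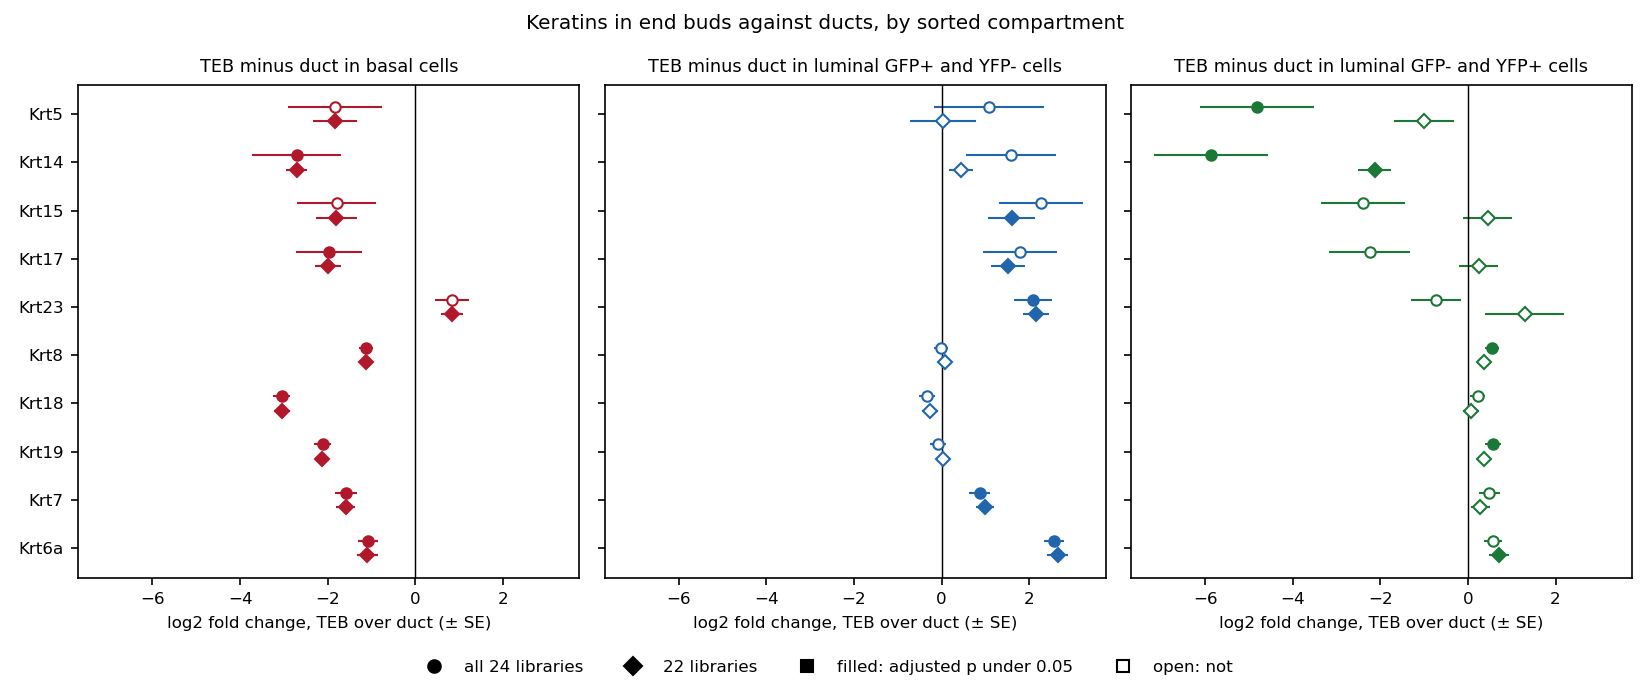
Log2 difference of TEBs minus ducts for the 10 keratins in basal cells, luminal GFP+ and YFP- cells and luminal GFP- and YFP+ cells; circles are fits with 24 libraries, diamonds fits with 22, bars are SEs, and filled symbols have an adjusted p under 0.05. In basal cells all members but Krt23 lie below 0, Krt18 lowest at -3.04; in GFP+ and YFP- cells Krt6a, Krt15 and Krt23 lie above 2 with 24 libraries, and Krt15 was not called there.

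The TEB difference itself differed between basal and luminal cells for 5 keratins, each lower in basal cells (14.9% of all tested genes were lower and 26.3% differed in either direction). The difference of the log2 differences was -2.98 ± 0.23 for Krt18 (adjusted p = 1.45e-07), -2.65 ± 0.28 for Krt6a, -2.37 ± 0.23 for Krt19, -2.26 ± 0.31 for Krt7 and -1.39 ± 0.19 for Krt8. With 22 libraries Krt14 (-1.87 ± 0.34, adjusted p = 0.00115), Krt15 (-2.83 ± 0.61, adjusted p = 0.00466) and Krt17 (-2.87 ± 0.42, adjusted p = 0.000281) joined them, 8 of 10 in all (16.2% of all genes were lower). Leaving out GFP- duct replicate 2 alone also gave 8.

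Partner keratins did not fall in step. The ratio of Krt8 to Krt18 CPM was 18.8, 15.7, 11.9 and 9.06 in basal TEBs and 3.94, 3.66, 3.52 and 2.89 in basal ducts. The basal groups did not overlap, and the ratio was 3.84-fold higher in TEBs (log2 difference 1.94, exact two-sided permutation p = 0.0286, which is the smallest p that 4 against 4 libraries allow; p adjusted over 4 ratio tests = 0.0286). Within the models the log2 difference was 2.18 in Elf5 and 1.71 in PR-cre. In luminal cells the ratio was 1.60 to 1.85 (median 1.70) in TEBs and 1.12 to 1.51 (median 1.37) in ducts, a log2 difference of 0.33 (exact two-sided permutation p = 0.000155, the smallest that 8 against 8 allow, adjusted p = 0.000311). Basal libraries (2.89 to 18.8) lay above luminal libraries (1.12 to 1.85) in all cases, by 2.17 on the log2 scale (exact permutation p = 1.36e-06, adjusted p = 5.44e-06). The permutations among luminal libraries and of basal against luminal libraries treat gates as independent, although gates of one replicate number may share 1 preparation. These are ratios of counts and are not per length.

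The ratio of Krt5 to Krt14 CPM was 2.16, 1.83, 1.23 and 0.977 in basal TEBs and 0.773, 0.631, 0.930 and 0.878 in basal ducts. The lowest TEB library lay just above the highest duct library, and the ratio was 1.86-fold higher in TEBs (log2 difference 0.89, exact two-sided permutation p = 0.0286, the smallest 4 against 4 libraries allow, adjusted p = 0.0286). The models differed in size: 1.51 on the log2 scale in the Elf5 model and 0.28 in the PR-cre model. Leaving out a single duct library gave an exact permutation p of 0.0571, which is above the smallest that 4 against 3 libraries allow.

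**Figure D4:**
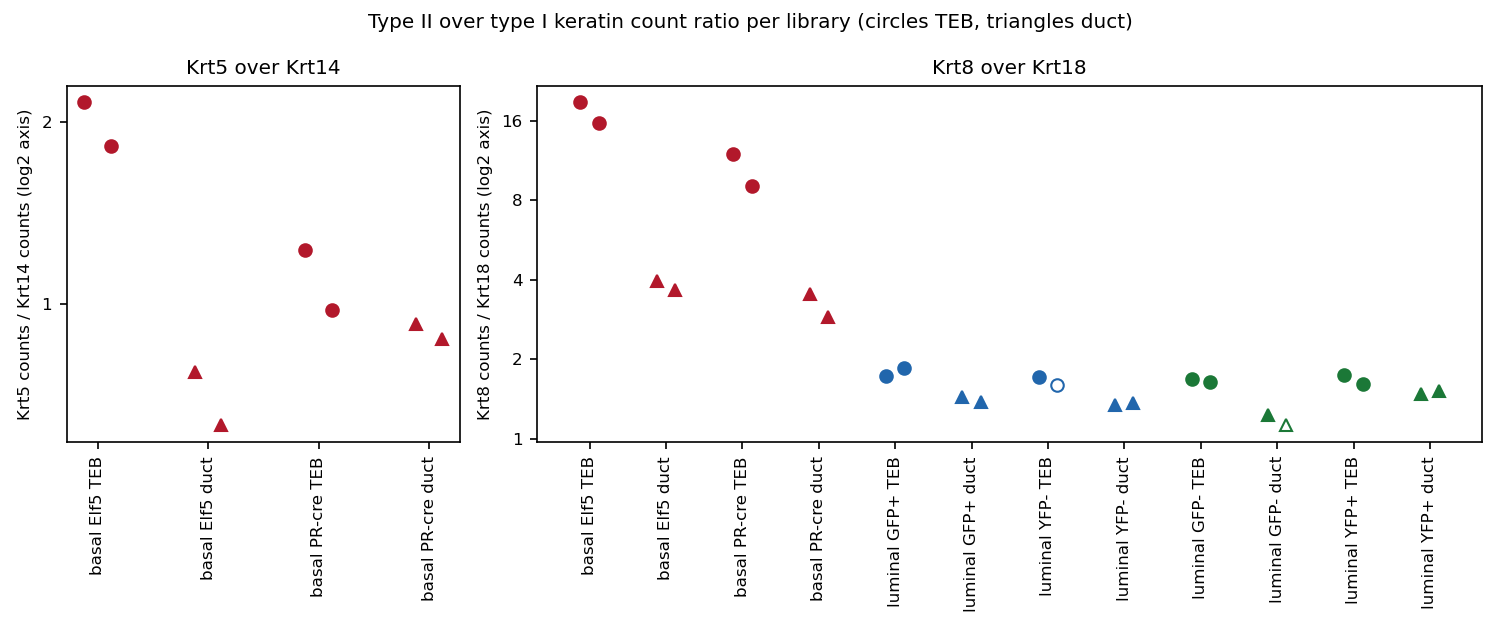
Ratio of Krt5 to Krt14 CPM in the 4 basal groups and of Krt8 to Krt18 CPM in all 12 groups (log2 axes), TEB left of duct; each point is a library. The basal TEB libraries reach a Krt8 to Krt18 ratio of 9.06 to 18.8, and no luminal library exceeds 1.85.

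The promoters of 4 members on chromosome 15 are shown because these genes share 1 chromosome region and split between the layers: Krt5 is basal, Krt7, Krt8 and Krt18 are luminal, and the neighbours Krt8 and Krt18, whose start sites are 23874 bases apart, differed in their fall in basal TEBs. The sequences are RefSeq windows of GRCm38.p6 from 250 bases before to 50 after the start site, and 6 of the 10 members had an entry. They are Krt8 at chr15:102004293-102004592 (minus strand), Krt18 at chr15:102027966-102028265 (plus strand), Krt7 at chr15:101412153-101412452 (plus strand) and Krt5 at chr15:101712856-101713155 (minus strand). Capitals mark matches, on either strand, to a TATA box (TATAAA), a GC box (GGGCGG), an AP-1 site (TGANTCA), an ETS site (AGGAAG) or an AP-2 site (GCCNNNGGC).
Krt8: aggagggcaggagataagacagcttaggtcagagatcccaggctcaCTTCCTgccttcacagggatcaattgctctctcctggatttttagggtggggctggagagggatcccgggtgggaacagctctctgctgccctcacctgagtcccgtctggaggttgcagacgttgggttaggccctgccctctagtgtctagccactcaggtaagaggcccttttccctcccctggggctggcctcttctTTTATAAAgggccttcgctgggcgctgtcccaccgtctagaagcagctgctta
Krt18: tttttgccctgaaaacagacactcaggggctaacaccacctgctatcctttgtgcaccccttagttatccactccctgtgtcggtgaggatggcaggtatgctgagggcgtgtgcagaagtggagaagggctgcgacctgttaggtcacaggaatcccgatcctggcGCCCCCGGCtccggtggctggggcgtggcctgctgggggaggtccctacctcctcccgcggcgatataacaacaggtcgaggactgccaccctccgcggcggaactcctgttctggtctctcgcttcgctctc
Krt7: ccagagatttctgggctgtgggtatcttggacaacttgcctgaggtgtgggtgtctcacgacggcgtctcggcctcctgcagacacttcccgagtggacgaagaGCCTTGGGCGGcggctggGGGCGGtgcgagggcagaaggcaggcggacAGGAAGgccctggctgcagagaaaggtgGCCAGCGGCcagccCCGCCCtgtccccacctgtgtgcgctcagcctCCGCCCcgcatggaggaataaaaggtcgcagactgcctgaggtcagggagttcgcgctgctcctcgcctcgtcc
Krt5: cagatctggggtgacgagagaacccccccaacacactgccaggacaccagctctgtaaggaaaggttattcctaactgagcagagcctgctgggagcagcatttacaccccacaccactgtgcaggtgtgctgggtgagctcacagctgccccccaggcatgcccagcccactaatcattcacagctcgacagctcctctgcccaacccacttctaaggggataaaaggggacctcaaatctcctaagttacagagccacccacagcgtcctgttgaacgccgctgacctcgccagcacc

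Krt8 had 1 ETS match and 2 overlapping TATA box matches, which began at -3 and -1 and ran across the annotated start site. Krt18 had 1 AP-2 match, and Krt7 had 4 GC box, 1 ETS and 2 AP-2 matches, of which the first AP-2 match overlapped a GC box. None of the 5 motifs matched in the Krt5 window. Among 32851 RefSeq promoter windows of the same length, 13.6% held the TATA box, 35.7% the GC box, 7.8% the AP-1 site, 35.4% the ETS site and 16.6% the AP-2 site. The partners Krt8 and Krt18 shared no motif match in these windows.

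In luminal GFP+ and YFP- cells Krt6a, Krt7 and Krt23 were higher in TEBs than in ducts, and Krt8, Krt18 and Krt19 did not pass the test. With 24 libraries 3 keratins were higher in TEBs (17.4% of all tested genes were) and 0 lower (15.2%), where 32.6% passed in either direction. At an unadjusted p under 0.05, 0 were lower, and DESeq2 called 0 lower, with 1 lower at its own unadjusted p under 0.05. With 22 libraries 5 were higher (17%, with 31.6% in either direction). Krt6a was at 21.6, 32.5, 45.0 and 34.5 CPM in TEBs and at 6.001, 5.54, 6.75 and 3.72 CPM in ducts, a log2 difference of 2.57 ± 0.23 (adjusted p = 1.72e-06), with values of 2.22 in GFP+ and 3.09 in YFP- cells when the pair of libraries was left out. Krt7 was at 278, 327, 302 and 199 CPM in TEBs and at 126, 159, 163 and 158 CPM in ducts (0.87 ± 0.24, adjusted p = 0.0116). The groups of Krt6a and of Krt7 did not overlap. The call of Krt7 was lost without GFP+ duct replicate 1 or without YFP- TEB replicate 1, with an adjusted p of 0.0588 and 0.0567.

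Krt23 was at 22.2 and 22.7 CPM in GFP+ TEBs and at 1.64 and 3.23 CPM in GFP+ ducts. In YFP- cells it was at 81.1 and 65.4 CPM in TEBs and at 45.9 and 30.4 CPM in ducts. Within each gate the TEB libraries were the higher, while the 2 gates together overlapped, since YFP- ducts lay above GFP+ TEBs. The pooled log2 difference was 2.09 ± 0.43 (adjusted p = 0.002). With 22 libraries the values within a gate were 3.24 in GFP+ cells (adjusted p = 0.000193) and 1.08 in YFP- cells (adjusted p = 0.114), where 1 TEB library remained and its spread is assumed to be that of the other groups.

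Krt8, Krt18 and Krt19 differed between TEBs and ducts of GFP+ and YFP- cells by -0.01 ± 0.15, -0.34 ± 0.18 and -0.08 ± 0.18 on the log2 scale, none of which passed the test, and scaling by library totals alone put Krt8 at 0.21 and Krt19 at 0.15. With 22 libraries Krt15 (1.60 ± 0.54, adjusted p = 0.0428) and Krt17 (1.52 ± 0.38, adjusted p = 0.00961) were called higher in TEBs. The highest of the 3 TEB libraries for both was YFP- replicate 1, with 61.4 CPM of Krt15 and 24.4 CPM of Krt17 beside a keratinocyte sum of 104.6 CPM, whose part in the calls was not tested. In GFP+ cells alone the log2 differences were 0.82 (adjusted p = 0.474) and 0.98 (adjusted p = 0.237).

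In luminal GFP- and YFP+ cells most TEB differences moved with GFP- duct replicate 2. With 24 libraries 2 keratins were higher in TEBs (13% of all tested genes were) and 2 lower (11.6%), and with 22 libraries 1 was higher (11.2%) and 1 lower (10.2%). Krt8 was at 4969, 5241, 4716 and 3708 CPM in TEBs and at 3649, 2211, 3478 and 3389 CPM in ducts (log2 difference 0.55 ± 0.15, adjusted p = 0.0151), and Krt19 at 4962, 5426, 5618 and 4415 CPM in TEBs and at 3845, 2082, 3748 and 4105 CPM in ducts (0.58 ± 0.18, adjusted p = 0.0298). With 22 libraries neither passed, at 0.37 (adjusted p = 0.054) and 0.38 (adjusted p = 0.0879), although the TEB and duct libraries of both still did not overlap. Krt5 was lower by 4.81 on the log2 scale with 24 libraries (adjusted p = 0.016), and with 22 its difference was -1.01 ± 0.69 (adjusted p = 0.368).

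Krt14 was lower in TEBs of GFP- and YFP+ cells, with a log2 difference of -5.87 ± 1.30 with 24 libraries (adjusted p = 0.00508) that was smaller without GFP- duct replicate 2. It was at 0.384, 0.678, 1.012 and 1.014 CPM in TEBs and, without GFP- replicate 2, at 3.02, 4.85 and 1.83 CPM in ducts. With 22 libraries the log2 difference was -2.13 ± 0.38 (adjusted p = 0.00172), with -2.48 in GFP- and -1.77 in YFP+ cells. Without GFP- duct replicate 2 alone the log2 difference of Krt14 was -2.11 and its call was lost (adjusted p = 0.0747). The 1 keratin higher with 22 libraries was Krt6a, at 0.70 ± 0.23 (adjusted p = 0.0442). The summed basal markers moved the same way as Krt14, at 19.4 to 25.4 CPM in these TEBs and at 34.3 to 55.8 CPM in these 3 duct libraries, and their part in the difference was not tested.

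Krt6a, Krt7, Krt19 and Krt23 differed between the luminal gates in both tissues, with 24 and with 22 libraries. In ducts 47.9% of all tested genes passed the test between GFP+ and YFP- cells and GFP- and YFP+ cells, with 1 keratin higher (24.6% of all genes) and 5 lower (23.3%); with 22 libraries, where 46.8% passed, 2 were higher (23.7%) and 5 lower (23.1%). In TEBs 47.6% of all genes passed, with 2 keratins higher (24.6%) and 5 lower (23%), and with 22 libraries 3 were higher (22.6%) and 5 lower (21.1%). The 5 that were lower in TEBs were Krt6a, Krt7, Krt8, Krt18 and Krt19.

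Krt6a was at 6.001, 5.54, 6.75 and 3.72 CPM in GFP+ and YFP- ducts and at 195, 290, 312 and 221 CPM in GFP- and YFP+ ducts, a log2 difference of -5.53 ± 0.26 (adjusted p = 3.04e-10). In TEBs it was at 21.6 to 45.0 CPM in GFP+ and YFP- cells and at 281 to 534 CPM in GFP- and YFP+ cells (-3.52 ± 0.23, adjusted p = 1.17e-08). The gap was therefore narrower in TEBs, and the test of that change gave 2.01 ± 0.31 (adjusted p = 0.000849). Krt7 showed a gap of -2.60 ± 0.25 in ducts (adjusted p = 6.31e-07) and -2.22 ± 0.25 in TEBs (adjusted p = 2.99e-06), and its change between tissues did not pass (0.38 ± 0.33, adjusted p = 0.561). Krt6b, the near copy of Krt6a, followed it, with a mean of 0.487 CPM in GFP+ and YFP- ducts and 24.4 CPM in GFP- and YFP+ ducts (log2 difference -5.60 ± 0.36). Reads of these 2 genes may be split.

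Krt23 ran the other way in the luminal gates. In TEBs it was at 22.2 to 81.1 CPM in GFP+ and YFP- cells and at 0.410 to 3.24 CPM in GFP- and YFP+ cells (log2 difference 5.36 ± 0.52, adjusted p = 1.2e-06). In ducts it was at 1.64 to 45.9 CPM in GFP+ and YFP- cells and at 0.056 to 3.19 CPM in GFP- and YFP+ cells, and the groups overlapped (2.54 ± 0.49, adjusted p = 0.00068). The value of 0.056 CPM, in GFP- duct replicate 1, is 2 counts and lies under the limit of 3 counts. With 22 libraries that library stands alone for GFP- ducts and the log2 difference is 4.56 ± 0.58.

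Krt14 was higher in GFP+ and YFP- TEBs, at 5.40, 7.57, 31.0 and 267 CPM, than in GFP- and YFP+ TEBs, at 0.384 to 1.014 CPM, and the groups did not overlap. The log2 difference was 5.39 ± 1.27 with 24 libraries (adjusted p = 0.00316) and 4.25 ± 0.34 with 22 (adjusted p = 3.3e-07), at 3.56 in the Elf5 model and 4.93 in the PR-cre model. In ducts the direction turned with the pair of libraries: the log2 difference of Krt14 was -2.07 ± 1.05 with 24 libraries (adjusted p = 0.125) and 1.67 ± 0.32 with 22 (adjusted p = 0.000799), the second with 0.45 in the Elf5 model (adjusted p = 0.551) and 2.90 in the PR-cre model (adjusted p = 4.85e-05). The summed basal markers were at 163 to 282 CPM in GFP+ and YFP- TEBs and at 19.4 to 25.4 CPM in GFP- and YFP+ TEBs, and their part in the Krt14 difference was not tested. With 22 libraries YFP- TEBs are replicate 1 alone, with a keratinocyte sum of 104.6 CPM against 59.8 and 81.2 CPM in GFP+ TEBs. The part of these transcripts in the TEB differences of Krt14 and Krt17 was not tested. Krt17 was called in TEBs with 22 libraries (1.88 ± 0.38, adjusted p = 0.00159), with opposite signs in the Elf5 model (-0.54) and the PR-cre model (4.30).

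The TEB difference itself differed between the luminal gate pairs for 4 keratins, each higher in GFP+ and YFP- cells (4.93% of all tested genes were higher, 5.68% lower and 10.6% differed in either direction). Besides Krt6a these were Krt14 (7.46 ± 1.65, adjusted p = 0.0112), Krt15 (4.65, adjusted p = 0.0447) and Krt23 (2.82, adjusted p = 0.0215). With 22 libraries Krt6a (1.95 ± 0.32, adjusted p = 0.00205) and Krt14 (2.57 ± 0.47, adjusted p = 0.00383) passed (5.16% of all genes were higher), while Krt15 was at 1.15 and Krt23 at 0.86. Leaving out GFP- duct replicate 2 alone put Krt23 at 0.75 (adjusted p = 0.885).

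Krt8, Krt18 and Krt19 were lower in GFP+ and YFP- cells, by 0.91, 0.96 and 1.54 on the log2 scale in TEBs. In ducts Krt19 was lower by 0.88 (adjusted p = 0.000899), while Krt8 (-0.35, adjusted p = 0.0695) and Krt18 (-0.40, adjusted p = 0.0749) passed only with 22 libraries (adjusted p = 0.00249 and 0.0194). In that fit Krt8 was at -0.20 in the Elf5 model and -0.86 in the PR-cre model. Krt5 and Krt15 were called lower in ducts with 24 libraries, at -3.17 and -3.29, and with 22 they were at 0.63 and -0.45 and did not pass.

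Levels of different genes were set side by side per length, as CPM per kilobase of the counted gene length, in the 22 libraries. Summed over the 10 keratins, basal TEBs held 1149 to 1750 and basal ducts 4815 to 5906 CPM per kilobase. GFP+ and YFP- cells held 3661 to 5598 in TEBs and 3578 to 4907 in ducts. GFP- and YFP+ cells held 7826 to 10110 in TEBs and 7214 to 7616 in ducts. The basal TEB libraries thus had the lowest keratin pool, below every other library of the 22.

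The makeup of the pool per length also differed. In basal cells Krt14 held 22.2 ± 4.0% of the pool in TEBs and 37.6 ± 4.1% in ducts (both n = 4, SD), Krt5 24.9% in TEBs and 22.6% in ducts, and Krt17 23.0% in TEBs and 23.6% in ducts. Krt23 held 11.4 ± 3.2% in basal TEBs and 1.62 ± 0.46% in basal ducts. Krt8, Krt18 and Krt19 together held 95.0 to 98.1% in GFP+ cells, 90.1 to 95.7% in YFP- cells without TEB replicate 2, and 87.9 to 91.1% in GFP- and YFP+ cells without GFP- duct replicate 2. The YFP- range overlapped that of the GFP- and YFP+ cells. The rest in GFP- and YFP+ cells was mostly Krt7, with 8.77% in TEBs and 9.35% in ducts. The basal keratins Krt5, Krt14, Krt15, Krt17 and Krt23 held 37.4% of the pool in GFP- duct replicate 2, against 0.213% in replicate 1.

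**Figure D5:**
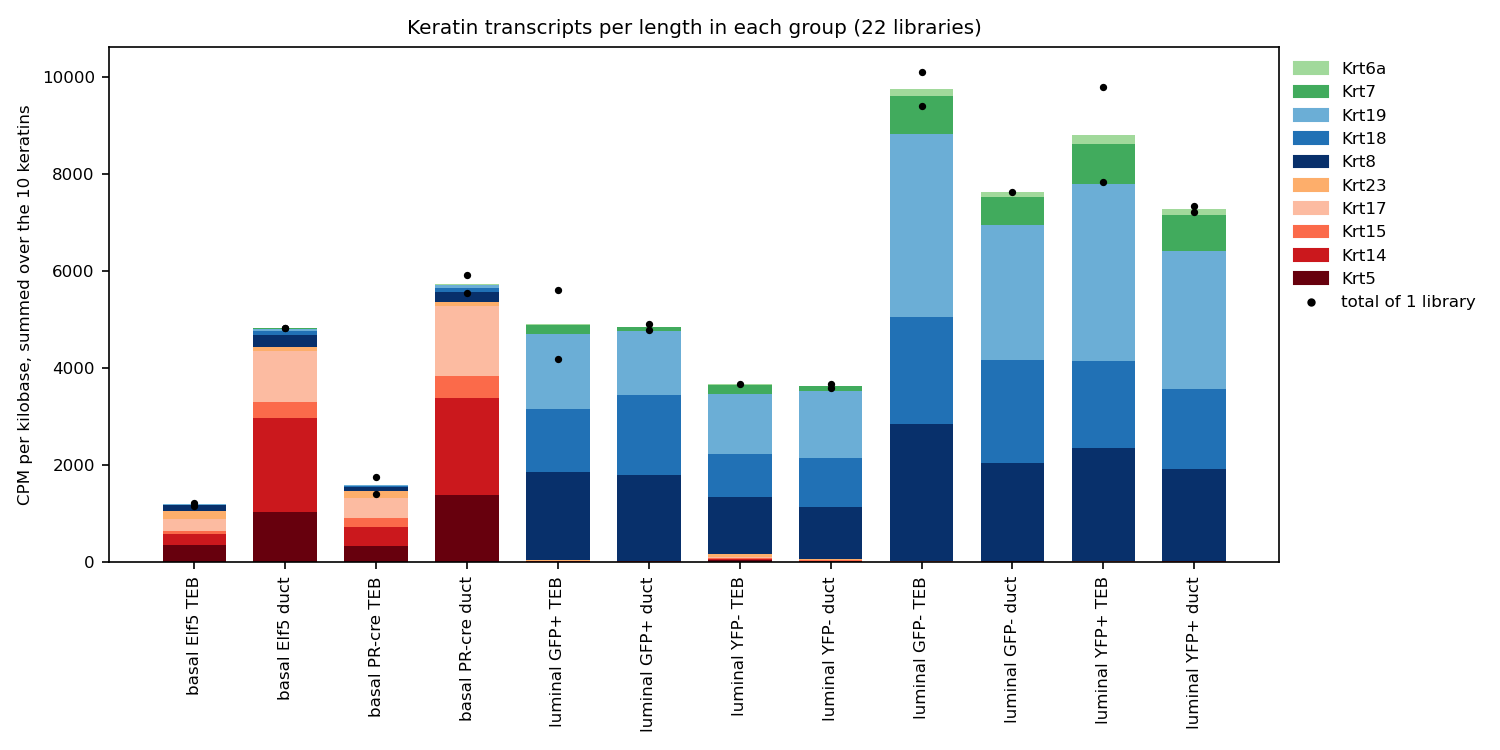
Summed level of the 10 keratins (CPM per kilobase of counted gene length) by group in the 22 libraries, stacked by gene as group means; dots are the totals of single libraries, TEB left of duct. Basal TEBs hold 1149 to 1750 CPM per kilobase, the lowest pool, and GFP- and YFP+ TEBs reach 10110.

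The order of the 12 group means placed the 4 basal groups first for Krt17 and Krt23 with 24 libraries, whereas the GFP- duct mean, carried by replicate 2, ranked among them for Krt5, Krt14 and Krt15. Over the 12 group means of log2 CPM (22 libraries), which share libraries and mostly separate basal from luminal groups, the members fell into close sets, given as a description. Pearson's r was 0.987 for Krt18 with Krt19, 0.985 for Krt8 with Krt18, 0.973 for Krt5 with Krt17, 0.953 for Krt5 with Krt14 and 0.84 for Krt6a with Krt7, and -0.92 for Krt17 with Krt8. The genes other than keratins most like a member by the same measure were Trp73, Col17a1 and Cxcl14 for Krt5 (r of 0.981, 0.98 and 0.979), Abca3 for Krt8 (0.991), Crb3 for Krt18 (0.991), Paqr5 for Krt7 (0.993), Chsy3 for Krt6a (0.986) and Kirrel for Krt23 (0.982).

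The remaining keratins and the proteins that bind keratin filaments were examined as lists. In basal cells, of 31 tested keratins among 44 outside the 10, 3 were higher and 7 lower in TEBs (20.9% and 22.8% of all genes), with a median log2 difference of -0.29. Krt16, a type I keratin that pairs with Krt6 chains, had a mean of 4.11 CPM in basal TEBs and 22.3 CPM in basal ducts (-2.44). Krt79 had 12.5 CPM in basal TEBs and 0.496 CPM in basal ducts (3.97). Of 19 genes that link keratins to junctions or to each other, 5 were higher and 8 lower. Among the lower were Dst, whose epithelial form anchors keratin at hemidesmosomes (666 CPM in basal TEBs and 3141 CPM in basal ducts, -2.17, adjusted p = 4.48e-09), Eppk1, a keratin-binding plakin (49.7 CPM in basal TEBs and 256 CPM in basal ducts, -2.42 ± 0.39, adjusted p = 0.000179), and the desmosomal plakophilin Pkp1 (60.9 CPM in basal TEBs and 291 CPM in basal ducts, -2.27, adjusted p = 0.000156).

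Of 12 tested intermediate filament genes that are not keratins, 3 were higher and 7 lower in basal TEBs (20.9% and 22.8% of all genes). Vim, the mesenchymal filament that myoepithelial cells also carry, had 269 CPM in basal TEBs and 655 CPM in basal ducts (-1.27, adjusted p = 0.000575), and Synm, a filament linker of muscle-like cells, 45.1 CPM in basal TEBs and 434 CPM in basal ducts (-3.39, adjusted p = 2.07e-07). The nuclear lamin Lmnb1 was higher, with 236 CPM in basal TEBs and 69.9 CPM in basal ducts (1.76, adjusted p = 2.2e-06). Lmnb1 was also higher in TEBs of GFP+ and YFP- cells (1.86) and of GFP- and YFP+ cells (1.66).

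Between basal and luminal cells the linkers split by gene. In ducts 12 of 19 were higher and 7 lower in basal cells (33.5% and 29.8% of all genes). The plakophilin Pkp2 had 1.08 CPM in basal ducts and 79.6 CPM in luminal ducts (log2 difference -6.21 ± 0.14, adjusted p = 1.4e-15), and with 22 libraries the desmosomal cadherin Dsc3 had 21.2 CPM in basal ducts and 0.533 CPM in luminal ducts (5.81 ± 0.48). With GFP- duct replicate 2 included the luminal duct mean of Dsc3 was 46.5 CPM and the log2 difference 3.63. In TEBs Pkp2 had 0.2 CPM in basal cells and 85.1 CPM in luminal cells. In luminal cells the desmosomal cadherin Dsc2 was higher in TEBs than in ducts of both gate pairs, with 77.4 CPM in TEBs and 23.9 CPM in ducts of GFP+ and YFP- cells (1.71 ± 0.10, adjusted p = 6.02e-09) and 210 CPM in TEBs and 102 CPM in ducts of GFP- and YFP+ cells (1.03). Nes, the nestin gene, had 148 CPM in GFP+ and YFP- TEBs, against 2.22 CPM in GFP- and YFP+ TEBs (5.91) and 25.9 CPM in GFP+ and YFP- ducts (2.55).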

How the data were processed

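The authors deposited whole-number read counts per gene for 24 libraries; per the submitters' processing notes they used featureCounts and the mm10 build. Per the labels' protocols, RNA came from a miRNeasy kit and libraries from the TruSeq RNA kit v2, which does not mark strand. The sources used here name no aligner, annotation release, strand setting or rule for multi-mapped reads. The series table and the 24 single files differed in 0 values. Symbols, coordinates and promoter windows came from RefSeq tables of GRCm38.p6; 1904 identifiers with 1.24% of the counts had no symbol. The counts of each replicate pair differed beyond sampling noise (a chi-square of 17.22 to 164.7 for each degree of freedom), so none was counted as a duplicate.

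The fit used R 4.3.3, edgeR 4.0.16 and limma 3.58.1: filterByExpr (minimum count 10, minimum total count 15), TMM scaling, and 1 robust quasi-likelihood model with 12 group means, 24 libraries and 12 residual degrees of freedom. P-values were adjusted by Benjamini-Hochberg over 18109 genes, and calls have an adjusted p under 0.05. The fit without luminal GFP- duct replicate 2 and luminal YFP- TEB replicate 2 tested 18892 genes. A log2 difference averages groups on the log2 scale, so it need not equal the log ratio of the mean CPM values. Ratios of 2 keratins were compared by exact permutation over libraries (scipy 1.17.1). Alternatives were other scalings, no filter, DESeq2 1.42.0, a replicate block, comparisons within each model and each library left out. The 2 fits that compare groups of a single model without the pair of libraries were added after the data were seen. The scripts were tested on simulated data. Other genes named are the 3 per list with the largest differences among those called with a mean of at least 10 CPM, and the 3 genes most like each member. The members, the lists and the pair of libraries were chosen with earlier results of these data known. Reads carry no molecular identifiers, so limits cover counting error only.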

Additional observations from a re-analysis of the deposited data

Results flagged for a closer look

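Of 60 sets of 4 libraries tested for a value that stands apart (Dixon's test at the 95% level, which chance flags in about 1 of 20 sets), 6 held one. In GFP- and YFP+ ducts 4 of these were GFP- replicate 2: Krt5 at 1960 CPM, with the others at 3.29 to 4.93; Krt14 at 1120 CPM, with the others at 1.83 to 4.85; Krt8 at 2210 CPM, with the others at 3390 to 3650; and Krt19 at 2080 CPM, with the others at 3750 to 4100. Krt23 at 0.056 CPM in GFP- duct replicate 1 lay below the other 3, at 1.96 to 3.19 CPM. In GFP+ and YFP- ducts Krt7 at 126 CPM in GFP+ replicate 1 lay below the other 3, at 158 to 163 CPM.

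Tests of a difference between differences passed for 9 values with all 24 libraries. The log2 difference of TEBs minus ducts in basal cells minus that in luminal cells was -2.65 for Krt6a, -2.26 for Krt7, -1.39 for Krt8, -2.98 for Krt18 and -2.37 for Krt19. The log2 difference of TEBs minus ducts in GFP+ and YFP- cells minus that in GFP- and YFP+ cells was 7.46 for Krt14, 4.65 for Krt15, 2.01 for Krt6a and 2.82 for Krt23.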

How the results depend on the processing

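Scaling by RLE kept the direction and the call of 90 of 90 keratin differences, and the fit without a filter of 86. Scaling by library totals alone moved the median of all genes by -0.108 (basal minus luminal ducts), 0.165 (basal TEBs minus ducts) and 0.226 (GFP+ and YFP- TEBs minus ducts), and turned Krt8 (0.21) and Krt19 (0.15) in that last comparison. With the replicate block 84 of 90 were kept, and every count of genes or keratins called stayed within 1.5 times; Krt5 in the basal minus luminal TEB effect turned to -0.067. The deviations of same-numbered libraries correlated weakly (r 0.0105 to 0.152 in the Elf5 model, 0.00337 to 0.102 in the PR-cre model), which does not settle whether they share a preparation, so the numbers were not used as pairs. With the block the ratio differences stayed at 0.89 (Krt5 to Krt14) and 1.94 (Krt8 to Krt18) with an exact permutation p of 0.125, the smallest it can give. Within a model, where the smallest p is 0.333, they were 1.51 (Elf5) and 0.28 (PR-cre), and 2.18 and 1.71; leaving out 1 library gave 0.71 to 1.09 for Krt5 to Krt14.

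Genes called fell in the PR-cre model alone to 4474 (basal TEBs minus ducts, against 7902), 3341 (GFP+ and YFP- TEBs minus ducts, against 5900), 1424 (GFP- and YFP+, against 4463), 2204 (basal minus luminal TEB effect, against 4761) and 504 (luminal TEB effect, against 1922). The last was 1037 in the Elf5 model alone. Without the pair of libraries, the Elf5 model gave 2252 (GFP- and YFP+) and 1246 (luminal TEB effect), and the PR-cre model 2959 (GFP+ and YFP-), 2104 (GFP- and YFP+), 5665 (luminal gates in TEBs, against 8625), 2615 (basal minus luminal TEB effect) and 662 (luminal TEB effect). These fits hold fewer libraries.

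Of the keratins called, basal TEBs minus ducts gave 4 in the Elf5 model (against 7). GFP+ and YFP- TEBs minus ducts (against 3) gave 5 without the pair, 1 in the PR-cre model, 5 by DESeq2 and 2 to 6 without 1 library. GFP- and YFP+ TEBs minus ducts (against 4) gave 2 without the pair, 0 in the PR-cre model by edgeR (1 at an unadjusted p under 0.05), 1 in each model without the pair, 7 by DESeq2 and 1 to 7 without 1 library. The luminal gates in ducts (against 6) gave 10 by DESeq2. The basal minus luminal TEB effect (against 5) gave 8 without the pair, also in the Elf5 model, and 5 to 8 without 1 library. The luminal TEB effect (against 4) gave 2 without the pair, 1 in the PR-cre model, 1 in each model without the pair, and 2 to 8 without 1 library. Counts of all genes called stayed within 1.5 times by DESeq2, without the pair and without 1 library. Shares of all genes are not given for the DESeq2, single-model and single-library fits, so those keratin counts describe the processing only.

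Directions turned as follows, where the cause was not tested. In GFP+ and YFP- TEBs minus ducts Krt5 was -2.01 in the Elf5 model (-2.02 without the pair); Krt8 was 0.082 without the pair, 0.025 in the Elf5 model, 0.024 and 0.14 in the Elf5 and PR-cre models without the pair, and -0.13 to 0.091 without 1 library. Krt19 was 0.032 without the pair, 0.24 in the Elf5 model, 0.23 there without the pair, and -0.21 to 0.036 without 1 library. In GFP- and YFP+ TEBs minus ducts Krt15 was 0.45 without the pair, 0.23 in the PR-cre model, 0.70 and 0.19 in the Elf5 and PR-cre models without the pair, and -2.87 to 0.47 without 1 library. Krt17 was 0.25, 0.19, 0.34 and 0.16 in the same fits, and -2.72 to 0.27 without 1 library. Krt23 was 1.30 without the pair, 2.89 in the Elf5 model without it, and -1.20 to 1.32 without 1 library. Between the luminal gates in ducts, without the pair, in the PR-cre model, and there without the pair, Krt5 was 0.63, 2.11 and 2.08, Krt14 1.67, 2.93 and 2.90 (and 0.45 in the Elf5 model without the pair), and Krt17 0.61, 2.44 and 2.41. Without 1 library these ranged from -4.76 to 0.62 (Krt5), -2.59 to 1.67 (Krt14) and -2.63 to 0.60 (Krt17). Krt15 was 1.03 in the PR-cre model and 1.00 there without the pair, and Krt8 0.14 in the Elf5 model. Between the luminal gates in TEBs, in the Elf5 model and there without the pair, Krt5 was -1.22 and -1.24, Krt15 -1.78 and -1.79, and Krt17 -0.52 and -0.54. In the basal minus luminal TEB effect Krt5 was -1.34 without the pair, -3.98 in the PR-cre model, -2.92 there without the pair, and -1.82 to 0.56 without 1 library. Krt14 was 1.61 in the Elf5 model and -2.38 to 0.0056 without 1 library. Krt23 was -0.89 without the pair, -0.17 in the Elf5 model, -2.23 there without the pair, and -0.81 to 0.45 without 1 library. In the luminal TEB effect Krt5 was -0.42 in the Elf5 model without the pair.

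With 2 libraries a group, Krt23 in GFP- and YFP+ cells, at 2 counts in 1 library, and Krt5, Krt14 and Krt17 in luminal cells are limited by depth.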
